A study of Mus musculus with 10 samples.

Results

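Neutrophil genes were followed in inflamed mouse skin as a list of 32 symbols that encode receptors, surface proteins, granule enzymes, oxidase subunits and products of activated neutrophils. They were picked by symbol, with earlier results of these data known. Of the 32, 29 had a row among 17016 genes of the deposited table, with Acod1 listed under its older symbol Irg1. Of these, 22 passed the filter for testing, 1 normalised CPM (the reads of a gene scaled by the library's effective size) in at least 5 libraries, as did 14548 genes in all. Csf3, Cxcr1, Mrgpra2a, Mrgpra2b, Trem3, Mpo and Ltf were below it. Ly6g, Elane and Ngp matched no row, so there are no expression values here for the surface antigen most often used to define mouse neutrophils (Ly6g).

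Whole skin was sampled from female BALB/c mice, 10 to 11 weeks old. Every animal had its back shaved and carried 5% imiquimod cream there on 5 days. Imiquimod activates the receptor TLR7, and the inflammation it causes is used as a model of psoriasis. One group of 5 was also given quinpirole, which activates the dopamine receptor DRD2, by 5 injections into the peritoneum, and the other 5 were given vehicle. Skin without imiquimod was not analysed here. The labels do not state that each sample is a separate mouse, so the p-values measure the spread among these samples. The libraries held 6763367 to 8361877 reads assigned to genes, and 1 read was worth 0.119 to 0.146 CPM.

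Neutrophils are short-lived white cells that are made in bone marrow under the growth factor CSF3 and enter tissue along chemokine and formyl-peptide gradients. They fill their granules in order during maturation: the primary granule proteins, such as myeloperoxidase, are transcribed in early precursors, while the collagenase MMP8 of secondary granules and the gelatinase MMP9 of tertiary granules come later. In psoriatic skin they collect in the epidermis as microabscesses. Several genes of the list are shared with monocytes and macrophages (Itgam, Cybb, Ncf1, Ncf4, Clec4d, Clec4e, Pilra), and in RNA from whole tissue a smaller number of cells and less RNA per cell cannot be told apart.

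For some genes of the list that moved together from library to library, the DNA before their starts is shown. Whether it bears on that movement was not tested. Capitals mark matches to GAGGAA (the core of sites for the myeloid factor PU.1) and to TTGCNNAA or TTNNGNAA (2 forms of the C/EBP site), searched on both strands. Each line gives the 150 bases upstream of the RefSeq start in GRCm38.p6, read 5′ to 3′ on the gene's own strand. Clec4d lies at chr6:123261957-123262106 (plus strand), Clec4e at chr6:123289872-123290021 (minus strand), Mmp8 at chr9:7558279-7558428 (plus strand) and Trem1 at chr17:48232589-48232738 (plus strand). Mrgpra2a, at chr7:47452165-47452314 (minus strand), is added because its 250 upstream bases were identical to those of Mrgpra2b at 250 of 250 positions.
Clec4d: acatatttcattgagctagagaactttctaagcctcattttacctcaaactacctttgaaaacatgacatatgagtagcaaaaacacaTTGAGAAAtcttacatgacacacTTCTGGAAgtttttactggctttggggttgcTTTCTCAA
Clec4e: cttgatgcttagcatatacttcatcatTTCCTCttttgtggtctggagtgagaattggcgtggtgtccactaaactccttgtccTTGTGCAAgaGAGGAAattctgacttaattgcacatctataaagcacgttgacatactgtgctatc
Mmp8: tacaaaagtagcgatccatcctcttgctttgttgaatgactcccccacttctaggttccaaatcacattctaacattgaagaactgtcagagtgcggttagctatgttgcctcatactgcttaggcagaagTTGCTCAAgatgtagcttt
Trem1: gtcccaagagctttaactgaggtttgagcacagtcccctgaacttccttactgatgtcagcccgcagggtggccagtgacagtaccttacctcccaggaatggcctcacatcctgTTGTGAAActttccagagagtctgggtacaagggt
Mrgpra2a: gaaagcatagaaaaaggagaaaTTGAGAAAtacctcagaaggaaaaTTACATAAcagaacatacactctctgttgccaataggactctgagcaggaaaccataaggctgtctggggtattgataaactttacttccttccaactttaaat

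RefSeq promoters were found for 27 of the 32 symbols, with 28 starts, Ly6g, Elane and Ngp among them. The stretches upstream of the Ly6g starts overlap, and those of Mrgpra2a and Mrgpra2b are identical, so some matches are counted more than once. GAGGAA occurred within 250 bases upstream of 17 of the 28 starts, or 60.7%, and in 23.3% of 32851 mouse promoters. TTGCNNAA occurred at 7 of the 28, or 25%, and in 9.56% of all promoters. TTNNGNAA, which every TTGCNNAA match also satisfies on the opposite strand, occurred at 15 of the 28, or 53.6%, and in 36.8% of all. These are matches of letters and were not tied to binding of any factor.

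The level of the list differed more between single libraries than between the 2 groups. The mean log2 level of the 22 tested genes was 3.78, 2.95, 3.46, 4.33 and 3.47 in vehicle replicates 1 to 5. It was 3.15, 3.10, 3.24, 3.60 and 3.47 in quinpirole replicates 1 to 5. Vehicle replicate 4 stood highest and vehicle replicate 2 lowest of all 10, so the vehicle group spanned the whole range and the quinpirole libraries lay inside it. Of the 22 genes, 12 had their highest value of all 10 libraries in vehicle replicate 4, against 9.90% of all genes tested. Vehicle replicate 2 was the lowest of the 5 vehicle libraries for 17 of the 22, against 23.4% of all genes. The spread of log2 values was larger in the vehicle than in the quinpirole group for 15 of the 22 genes, and for 14 of the 22 without vehicle replicate 4, where 47.5% and 47.1% of all genes did so.

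**Figure D1:**
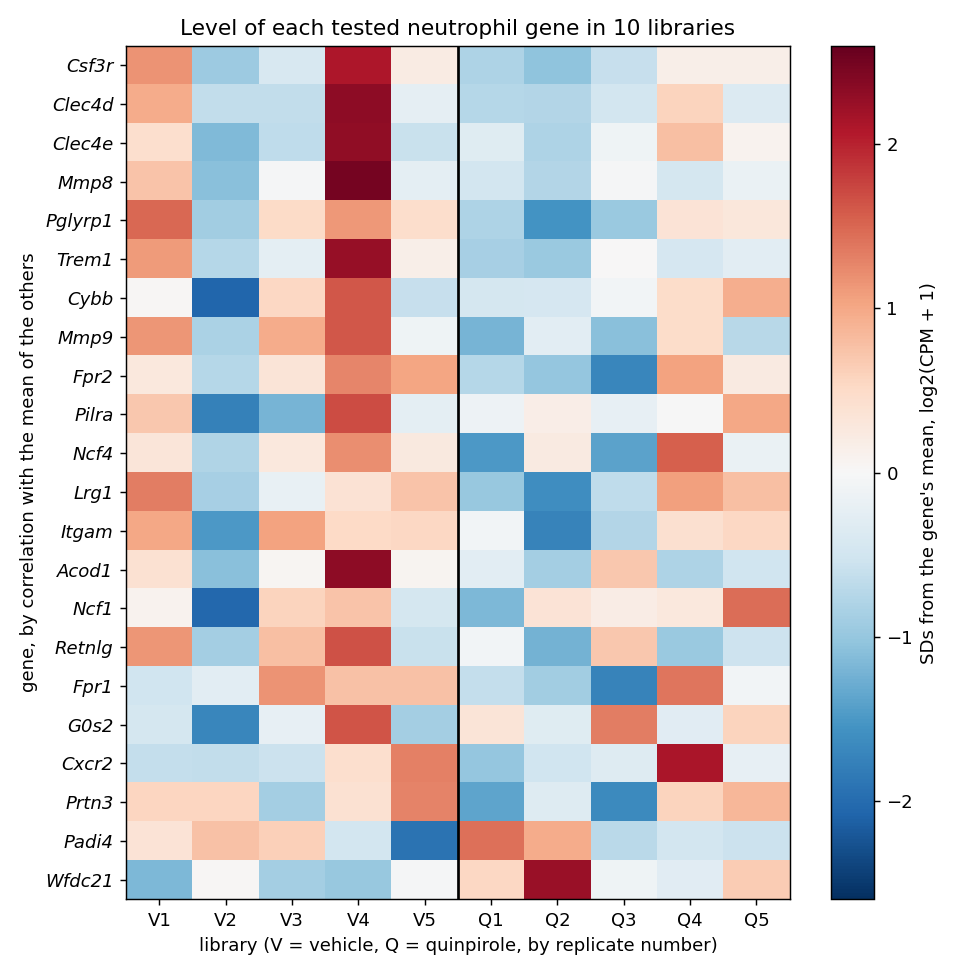
Level of each tested neutrophil gene (rows, in order of correlation with the mean of the others) in each of the 10 libraries (columns), as its distance from the gene's mean in units of its SD over the libraries. In 12 of the 22 rows vehicle replicate 4 (V4) is the highest library, and in 17 vehicle replicate 2 (V2) is the lowest of the vehicle libraries; the row of Wfdc21 is highest in quinpirole replicate 2 (Q2).

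Between the groups no gene of the list passed the test (limma on log2 of CPM plus 1, two-sided, Benjamini-Hochberg adjusted p under 0.05 over all genes tested), so 0 of 22 were called, where 0.0206% of all genes, 3 of 14548, were. The lowest adjusted p in the list was 0.316. At an unadjusted p under 0.05, 1 gene was lower with quinpirole (Mmp9), where 4.47% of all genes were, and 1 was higher (Wfdc21), where 6.92% were. No gene of the list had groups that did not overlap, while 0.859% of all genes did with quinpirole lower and 1.34% with quinpirole higher. On the recovered reads, edgeR also called 0 of 22, where 0.0344% of all genes were called. At an unadjusted p under 0.05 it had 4 genes lower (Csf3r, Trem1, Mmp9 and Pglyrp1), where 4.8% of all genes were, and 1 higher (Wfdc21), where 6.79% were. DESeq2 called 0 of 22, where 1.51% of all genes were called, and at an unadjusted p under 0.05 had 6 lower (Clec4d and Mmp8 besides those 4), where 4.74% were, and 1 higher (Wfdc21), where 7.05% were. The sign of the difference was lower with quinpirole in 15 of the 22, with a median log2 fold change of -0.29, beside 50.4% and -0.002 for all genes. Adding 1 CPM before the logarithm shrinks the fold change of low genes, and for 7 of the 22 (Trem1, Clec4d, Clec4e, Prtn3, Mmp8, Acod1 and Retnlg) edgeR gave over 1.5 times the value. The list's median was -0.20 without vehicle replicate 4, -0.45 without vehicle replicate 2 and -0.47 without quinpirole replicate 4. It was -0.09 for the 14 genes that reached 5 CPM in at least 5 libraries.

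**Figure D2:**
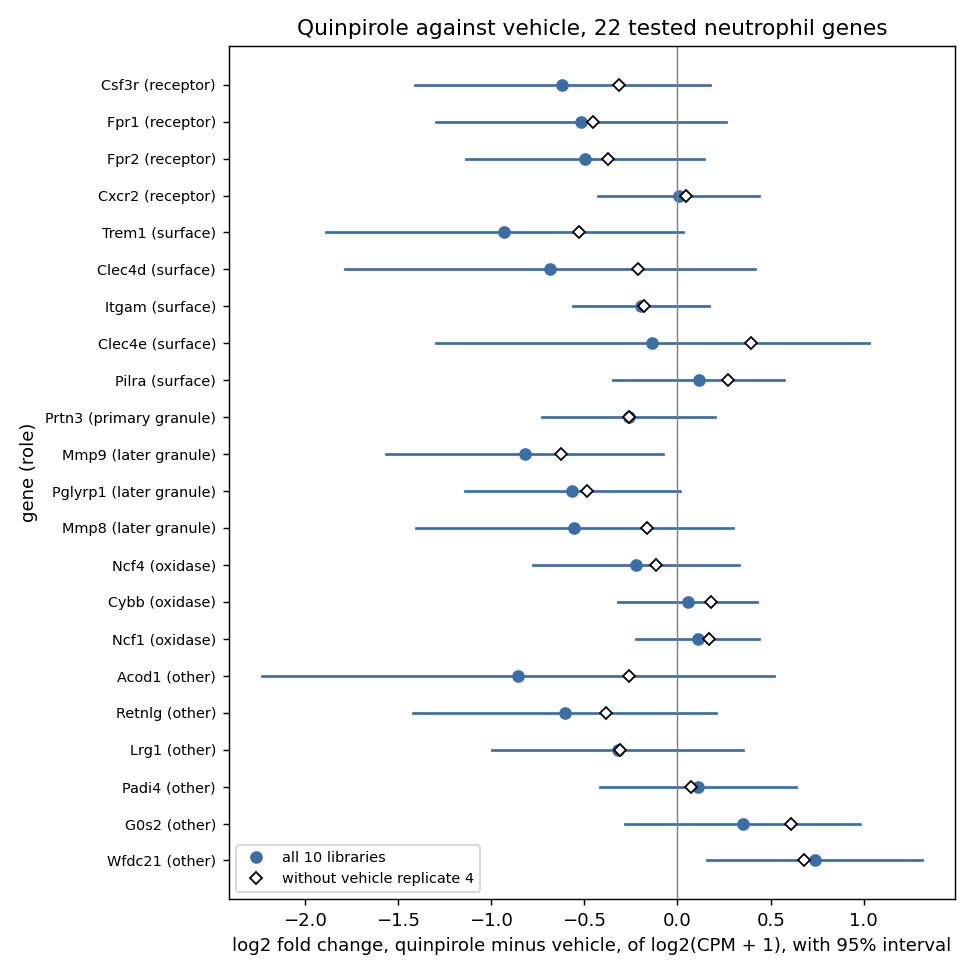
Log2 fold change of quinpirole against vehicle for the 22 tested genes, on the log2(CPM + 1) scale, with 95% intervals from limma (filled circles, 5 libraries per group) and the value without vehicle replicate 4 (open diamonds). The intervals of Mmp9 and Wfdc21 lie apart from 0 before adjustment, and the diamonds of Csf3r, Trem1, Clec4d, Mmp8 and Acod1 lie closer to 0 than their circles.

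The growth factor and its receptor come first. Csf3, which drives the production of neutrophils, was at the edge of detection, at 36 reads in the whole vehicle group and 22 in the quinpirole group. Csf3r, its receptor and a marker of the neutrophil lineage (chromosome 4, 126024550 to 126044440, mm10), had 51.8, 17.5, 23.0, 83.4 and 32.0 CPM in vehicle replicates 1 to 5. With quinpirole it had 18.8, 16.6, 20.8, 31.0 and 30.7 CPM. Vehicle replicates 4 and 1 were the highest libraries, while vehicle replicates 2 and 3 lay within the quinpirole range. The means were 41.5 ± 26.8 and 23.6 ± 6.81 CPM (SD, n = 5 each), and the log2 fold change was -0.62 (95% interval -1.41 to 0.17, limma adjusted p = 0.548). Without vehicle replicate 4 the log2 fold change of Csf3r was -0.31, a smaller difference that again was not called (limma adjusted p = 0.75).

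Receptors that guide neutrophils to a site followed, none of them called. Cxcr2, the receptor for the CXC chemokines that draw neutrophils (chromosome 1, 74153989 to 74161246), had 44.8, 44.7, 45.4, 57.9 and 71.5 CPM with vehicle and 40.8, 45.8, 48.1, 86.8 and 49.4 CPM with quinpirole. Its highest library was quinpirole replicate 4, followed by vehicle replicates 5 and 4, and the groups overlapped. For Cxcr2 the log2 fold change was 0.01, with a 95% interval of -0.43 to 0.44 (limma adjusted p = 0.995). Its neighbour Cxcr1, a related receptor, had 17 and 9 reads in the 2 groups.

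The formyl peptide receptors Fpr1 and Fpr2, which sense bacterial and mitochondrial peptides, lie beside each other on chromosome 17. Fpr1 had 8.04, 9.11, 19.0, 15.6 and 15.5 CPM with vehicle and 7.61, 6.55, 4.09, 21.3 and 10.2 CPM with quinpirole. Fpr2 had 17.8, 11.5, 18.2, 26.9 and 24.4 CPM with vehicle and 11.5, 10.3, 7.63, 24.5 and 17.6 CPM with quinpirole. In both genes quinpirole replicate 3 was the lowest library and quinpirole replicate 4 the highest of its group, so the groups overlapped. The log2 fold changes were -0.52 for Fpr1 (limma adjusted p = 0.62) and -0.49 for Fpr2 (limma adjusted p = 0.552). Of the 50-base stretches of Fpr2 exons, 31.5% also occur in other genes, so its reads could be divided with them.

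Mrgpra2a and Mrgpra2b encode receptors that answer to antimicrobial peptides and neighbour each other on chromosome 7. They share most of their sequence: 87.5% of the 50-base stretches of Mrgpra2a exons and 81.2% of those of Mrgpra2b occur elsewhere, nearly all in the other gene. Their reads are therefore uncertain singly and are given as a sum, which was 2.89, 0.142, 0.916, 7.65 and 0.419 CPM with vehicle and 0.594, 0.582, 1.5, 0.508 and 0.387 CPM with quinpirole. Vehicle replicates 4 and 1 held most of the reads, 92 in all with vehicle against 27 with quinpirole, and the other 3 vehicle libraries fell within the quinpirole range or below it. Taken singly, Mrgpra2a had 28 and 3 reads (exact two-sided permutation p = 0.0159, unadjusted), and Mrgpra2b had 64 and 24 (exact two-sided permutation p = 0.452). With no filter on low values, limma gave adjusted p-values of 0.374 and 0.831 over 17016 genes.

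Among surface proteins, the innate activating receptors Trem1, Clec4d and Clec4e were all highest in vehicle replicate 4. Vehicle replicate 1 came next for Trem1 and Clec4d, and quinpirole replicate 4 for Clec4e. Trem1, which amplifies inflammatory signalling in neutrophils and monocytes, had 5.40, 0.996, 1.70, 12.3 and 2.51 CPM with vehicle. It had 0.832, 0.728, 2.18, 1.40 and 1.68 CPM with quinpirole. Vehicle replicates 1, 4 and 5 lay above every quinpirole library, and vehicle replicates 2 and 3 within their range. The log2 fold change of Trem1 was -0.93 (95% interval -1.88 to 0.03, limma adjusted p = 0.457) with all libraries and -0.53 without vehicle replicate 4 (limma adjusted p = 0.631). By edgeR the log2 fold change of Trem1 was -1.74 (adjusted p = 0.301). The vehicle mean of Trem1 was 4.58 ± 4.62 CPM (SD, n = 5) with that library and 2.65 CPM without it, beside 1.36 ± 0.602 CPM (SD, n = 5) with quinpirole. Its neighbour Trem3, a related receptor, had 28 reads with vehicle, most of them in vehicle replicate 4 (2.64 CPM) and replicate 1 (0.754 CPM), and 9 with quinpirole.

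Clec4d and Clec4e encode a pair of C-type lectin receptors that recognise mycobacterial and fungal glycolipids. They lie next to each other on chromosome 6 in opposite orientation, at 123262111 to 123275265 and 123281789 to 123289870. Clec4d had 7.66, 1.99, 1.96, 20.5 and 2.93 CPM with vehicle and 1.78, 1.75, 2.31, 5.72 and 2.58 CPM with quinpirole. Clec4e had 5.90, 1.42, 2.36, 22.6 and 2.51 CPM with vehicle and 3.21, 2.04, 3.81, 7.62 and 4.52 CPM with quinpirole. In both genes vehicle replicate 4 was the highest library by far and quinpirole replicate 4 the highest of its group. The log2 fold change of Clec4d was -0.68 (limma adjusted p = 0.652) and that of Clec4e was -0.13 (limma adjusted p = 0.95). By edgeR they were -1.31 (adjusted p = 0.462) and -0.71 (adjusted p = 0.734). Without vehicle replicate 4, the limma difference in Clec4d shrank to -0.21 (limma adjusted p = 0.885) and that in Clec4e turned to 0.40 (limma adjusted p = 0.724). Neither direction was called.

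Itgam and Pilra, which are broadly myeloid, were steadier. Itgam, the CD11b integrin subunit used for adhesion, had 154, 91.1, 156, 139 and 140 CPM with vehicle and 123, 86.6, 106, 137 and 140 CPM with quinpirole, with replicate 2 lowest in both groups. Its log2 fold change was -0.20 (limma adjusted p = 0.705), and 66.3% of its 50-base stretches also occur in the overlapping gene model Gm49368. Pilra, an inhibitory receptor, had 7.67 ± 2.91 CPM with vehicle and 8.03 ± 1.11 CPM with quinpirole (n = 5 each, with SDs), or 0.11 as a log2 fold change (limma adjusted p = 0.877).

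**Figure D3:**
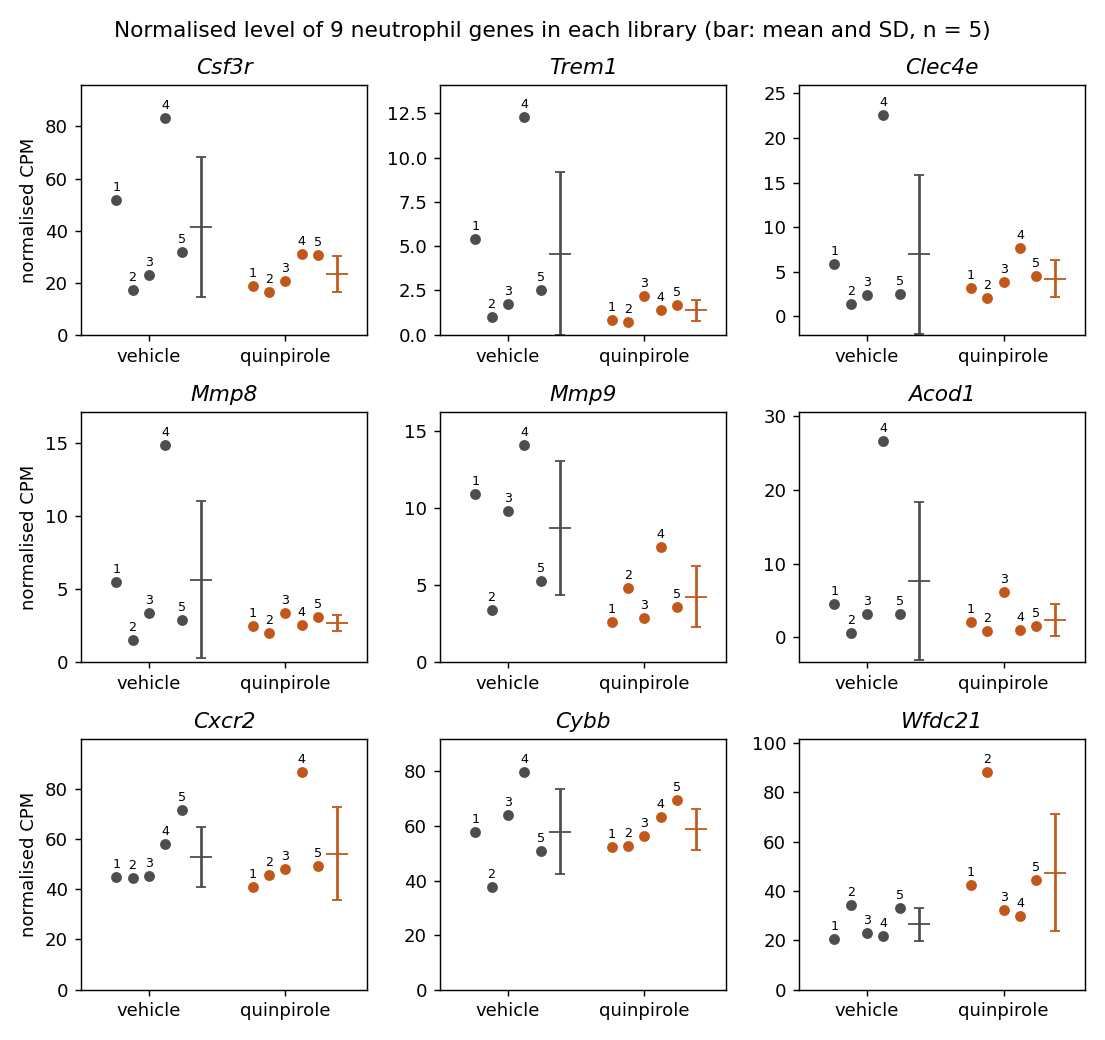
CPM of 9 neutrophil genes in each library (points, linear axes), numbered by replicate, with the group mean and SD beside them (horizontal line and whiskers) for vehicle and quinpirole, 5 libraries per group; the 9 genes were chosen after their values were seen. Vehicle replicate 4 is the highest point for Csf3r, Trem1, Clec4e, Mmp8, Mmp9, Acod1 and Cybb, quinpirole replicate 4 for Cxcr2 and quinpirole replicate 2 for Wfdc21.

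The primary granule genes were at the edge of detection. Prtn3 overlaps Plppr3 on the opposite strand and Mpo the antisense model Gm11505, so reads of these pairs may not be told apart. Prtn3, the serine protease proteinase 3, was the 1 gene of this class that could be tested and had 69 reads over all 10 libraries, or 1.08 ± 0.362 CPM with vehicle and 0.758 ± 0.456 CPM with quinpirole (n = 5 each, with SDs). Its log2 fold change was -0.26 by limma (adjusted p = 0.687) and -0.50 by edgeR. Mpo, myeloperoxidase, had 0.251 CPM in vehicle replicate 1 and no read in the other 4 vehicle libraries. With quinpirole it had 0.475, 0.437, 0.272, 0.127 and 0.387 CPM. These are 2 reads against 13, and the quinpirole libraries had 1 to 4 reads each (exact two-sided permutation p = 0.0159, unadjusted; limma adjusted p = 0.296 with no filter on low values). Ltf, the iron-binding lactoferrin of secondary granules, had 12 reads with vehicle and 4 with quinpirole (exact two-sided permutation p = 0.238, unadjusted). This exact test was run on each of the 7 genes below the filter. For Csf3, Cxcr1 and Trem3 the exact test gave p = 0.31, 0.151 and 0.476, also unadjusted.

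The genes of later granules were all lower with quinpirole in their means, and none was called. Mmp9, the gelatinase B of tertiary granules (chromosome 2, 164940780 to 164955850), had 10.9, 3.41, 9.82, 14.1 and 5.31 CPM with vehicle. It had 2.61, 4.80, 2.86, 7.5 and 3.61 CPM with quinpirole. Vehicle replicates 1, 3 and 4 lay above every quinpirole library, while vehicle replicates 2 and 5 lay among them. The means were 8.72 ± 4.33 and 4.28 ± 1.99 CPM (SD, n = 5 each). On the log2 scale Mmp9 differed by -0.82, with a 95% interval of -1.56 to -0.08 (limma adjusted p = 0.388, or 0.0332 before adjustment). Without vehicle replicate 4 it was -0.63 (limma adjusted p = 0.578). Which cells of the skin the Mmp9 reads came from was not tested.

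Mmp8, the neutrophil collagenase, repeated the pattern of Trem1, with 5.53, 1.57, 3.40, 14.9 and 2.93 CPM with vehicle and 2.50, 2.04, 3.40, 2.54 and 3.10 CPM with quinpirole. The quinpirole libraries were within a narrow range, and the vehicle libraries lay on both sides of it. The log2 fold change of Mmp8 was -0.55 with all libraries (limma adjusted p = 0.631) and -0.16 without vehicle replicate 4 (limma adjusted p = 0.865). By edgeR it was -1.06 with all libraries (adjusted p = 0.446). Pglyrp1, a granule protein that binds bacterial peptidoglycan, depended less on that library. It had 5.15, 1.57, 3.27, 4.35 and 3.21 CPM with vehicle and 1.66, 1.02, 1.5, 3.05 and 2.97 CPM with quinpirole, so that 4 vehicle libraries lay above all 5 quinpirole libraries and vehicle replicate 2 lay among them. For Pglyrp1 the log2 fold change was -0.56 (limma adjusted p = 0.455) and -0.49 without vehicle replicate 4.

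The subunits of the phagocyte NADPH oxidase, which makes the superoxide of the respiratory burst, stayed close between the groups. Cybb, the membrane subunit gp91phox (chromosome X, 9435252 to 9487771), had 57.7, 37.6, 64.1, 79.8 and 50.7 CPM with vehicle and 52.3, 52.5, 56.5, 63.4 and 69.6 CPM with quinpirole. The quinpirole libraries lay wholly within the vehicle range, and the log2 fold change was 0.06 (95% interval -0.32 to 0.43, limma adjusted p = 0.936). The cytosolic subunits Ncf1 and Ncf4 had log2 fold changes of 0.11 (limma adjusted p = 0.83) and -0.22 (limma adjusted p = 0.784). Ncf1 averaged 21.5 ± 3.96 CPM with vehicle and 23.1 ± 3.74 CPM with quinpirole, and Ncf4 12 ± 2.78 and 10.6 ± 4.73 CPM (SD, n = 5 each). Macrophages also carry this oxidase, and the summed level of 16 macrophage markers, all present, was 1737 to 2809 CPM with vehicle and 2679 to 3650 CPM with quinpirole. Of these 16, 13 were higher with quinpirole in their means, with a median log2 fold change of 0.29. Apoe alone averaged 866 CPM with vehicle and 1241 CPM with quinpirole, a large part of the sums. Limma called 0 of the 16, with 1 lower and 3 higher at an unadjusted p under 0.05, beside 4.47% and 6.92% of all genes. Their part in the oxidase values was not tested.

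The remaining genes are products of activated or mature neutrophils, some of which other skin cells can also make, and the genes split in direction. Acod1, the enzyme that makes itaconate in activated myeloid cells (chromosome 14, 103046977 to 103056573), had 4.52, 0.569, 3.14, 26.5 and 3.21 CPM with vehicle and 2.14, 0.873, 6.13, 1.02 and 1.55 CPM with quinpirole. Vehicle replicate 4 and quinpirole replicate 3 stood far above the rest of their groups. Its log2 fold change was -0.85, with a 95% interval of -2.23 to 0.52 (limma adjusted p = 0.651), and -0.26 without vehicle replicate 4 (limma adjusted p = 0.883). By edgeR, Acod1 came to -1.69 (adjusted p = 0.465). Retnlg, a resistin-like protein of mature mouse neutrophils, was low throughout, with 3.64, 0.711, 2.88, 5.01 and 0.978 CPM with vehicle and 1.54, 0.437, 2.72, 0.635 and 1.03 CPM with quinpirole. Vehicle replicates 1, 3 and 4 lay above every quinpirole library (log2 fold change -0.60, limma adjusted p = 0.57, and -1.05 by edgeR, adjusted p = 0.505).

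Lrg1, a secreted glycoprotein also made by endothelium, averaged 16.2 ± 5.52 CPM with vehicle and 13.3 ± 6.43 CPM with quinpirole (n = 5 each, with SDs), or -0.32 as a log2 fold change (limma adjusted p = 0.742). Summed endothelial markers were 112 to 230 CPM with vehicle and 93.7 to 171 CPM with quinpirole, and their part in the Lrg1 values was not tested. Padi4, which citrullinates histones when neutrophil extracellular traps form, averaged 11.0 ± 3.28 and 11.9 ± 3.79 CPM (SD, n = 5 each; log2 fold change 0.11, limma adjusted p = 0.904). Both genes had overlapping groups. G0s2, an inhibitor of the triglyceride lipase ATGL that adipocytes also express, had 11.7, 6.97, 12.8, 26.4 and 9.78 CPM with vehicle and 15.9, 12.4, 23.6, 12.5 and 17.6 CPM with quinpirole. Although vehicle replicate 4 was again the highest library, the log2 fold change of G0s2 was 0.35 (limma adjusted p = 0.693), and 0.61 without that library (limma adjusted p = 0.421). Lamb3 overlaps G0s2 on the opposite strand, as Gtf2ird2 does Ncf1 and Zcwpw1 does Pilra, so reads of these pairs may not be told apart.

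Wfdc21, a small secreted protein with a whey acidic protein domain (chromosome 11, 83746940 to 83752642), was the list's largest difference toward quinpirole. It had 20.3, 34.1, 22.9, 21.9 and 33.2 CPM with vehicle and 42.4, 88.3, 32.1, 29.7 and 44.6 CPM with quinpirole. Quinpirole replicates 1, 2 and 5 lay above every vehicle library, and quinpirole replicate 2 far above the others. The means were 26.5 ± 6.63 and 47.5 ± 23.7 CPM (SD, n = 5 each). On the log2 scale Wfdc21 differed by 0.74, with a 95% interval of 0.16 to 1.31 (limma adjusted p = 0.316, or 0.017 before adjustment). Without quinpirole replicate 2 the log2 fold change was 0.49.

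Reads were also spread unevenly over the list once gene length was taken into account. Per kilobase of annotated exon, Wfdc21 had the highest mean level, 85.2 CPM per kb. It was followed by Itgam (25.4), Cxcr2 (17.6), G0s2 (17.2), Fpr2 (13.2), Lrg1 (10.5), Cybb (10.1), Csf3r (9.02) and Fpr1 (8.84 CPM per kb). Itgam and Fpr2 share sequence with other genes, and G0s2 overlaps Lamb3, as given above. Neighbours in this order such as Cxcr2 and G0s2, or Csf3r and Fpr1, differed by less than their spread over libraries. Trem1, at 0.991 CPM per kb, and Prtn3, at 0.53 CPM per kb, were the lowest of the tested genes.

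The co-variation of the list was measured as the correlation of each tested gene's log2 level with the mean of the other 21, each scaled to mean 0 and SD 1, over 10 libraries. The genes were listed together with this co-variation in view, so the p-values below are not independent evidence that they form a group. Of 22 relations, 13 had an adjusted permutation p under 0.05 by Pearson's r and 12 by Spearman's rho (100000 resamples, Benjamini-Hochberg over the 22). How many of all genes tested would pass against the same mean was not computed, so these counts cannot be read as particular to the list. Genes that are not markers of myeloid cells, such as Idh3b (r = 0.930) and Clasp2 (r = 0.923), followed the mean of the 22 closely too. Csf3r followed the others most closely, with r = 0.94 (adjusted permutation p = 0.00088) and rho = 0.89 (adjusted permutation p = 0.0246). Clec4d, with r = 0.88 and rho = 0.83, and Clec4e, with r = 0.87 and rho = 0.84, came next, followed by Mmp8 (r = 0.85, rho = 0.76), Pglyrp1 (r = 0.83, rho = 0.78) and Trem1 (r = 0.83, rho = 0.72). The adjusted permutation p of these 5 was 0.00198 to 0.00876 by r and 0.0342 to 0.0449 by rho.

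Not all of these relations stood without the extreme libraries. The 2 libraries farthest from the median of the list were vehicle replicates 2 and 4. Without them r was 0.89 for Csf3r, 0.91 for Pglyrp1, 0.80 for Clec4d, 0.62 for both Clec4e and Trem1, and 0.56 for Mmp8. Of the 22 genes, 14 had r above 0.5, again with no such count made over all genes tested. For Acod1 r fell from 0.67 to -0.03, for Pilra from 0.71 to 0.21 and for G0s2 from 0.42 to -0.50, so these relations rest on those 2 libraries. Lrg1 went the other way, from 0.69 to 0.94. Within groups, on deviations from the group means, r was 0.95 for Csf3r, 0.91 for Cybb, 0.90 for Clec4e and 0.87 for Clec4d.

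The genes also split from one another. Over the 231 pairs the median r was 0.46, and 48 pairs, or 20.8%, had r above 0.7, against a median of -0.001 and 3.32% of pairs among all genes tested. The closest pairs were Trem1 with Mmp8 (r = 0.96), Csf3r with Clec4d (r = 0.95), Csf3r with Trem1 (r = 0.94) and Mmp8 with Acod1 (r = 0.94). Padi4 and Wfdc21 alone ran against the others, with r = -0.48 for Padi4 (adjusted permutation p = 0.182) and r = -0.62 for Wfdc21 (adjusted permutation p = 0.0834 by r and 0.0449 by rho). The lowest r of any pair was -0.79, between Pglyrp1 and Wfdc21. Cxcr2 (r = 0.38) and Prtn3 (r = 0.34) followed the others weakly. All points share their libraries, and vehicle replicate 4 weighs in each value.

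**Figure D4:**
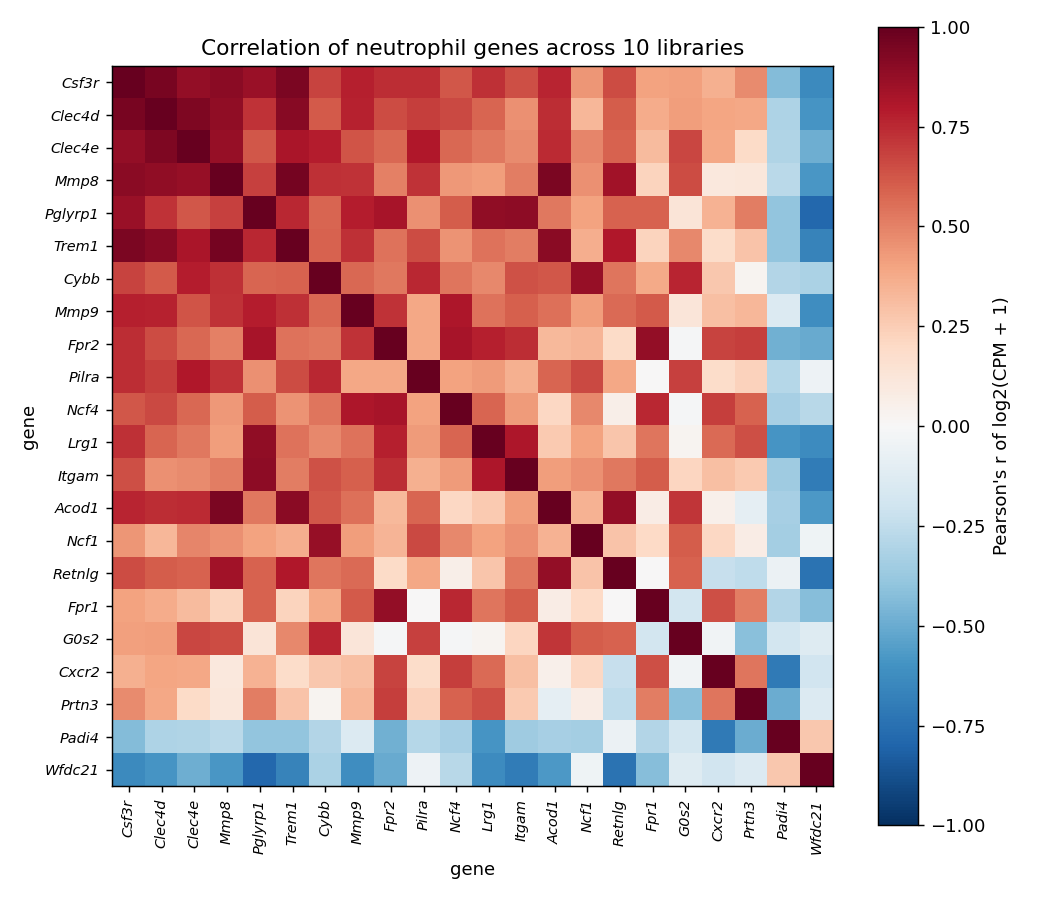
Pearson r between the log2 levels of each pair of the 22 tested neutrophil genes over the 10 libraries (colour, -1 to 1). A block of high r joins Csf3r, Clec4d, Clec4e, Mmp8 and Trem1, and the rows of Wfdc21 and Padi4 are mostly negative.

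Among genes outside the list, those whose log2 level was most like the list's mean over the 10 libraries were Fgr (r = 0.956), Samd11 (0.944), Srgn (0.943), Ccr1 (0.932), Idh3b (0.930), Tes (0.926), Clasp2 (0.923), Rab29 (0.922), Ralb (0.921) and Sirpb1a (0.921). Fgr is a Src-family kinase of myeloid cells, Srgn the proteoglycan core that packs granule proteins, and Ccr1 a chemokine receptor of myeloid cells. Samd11, Idh3b, Tes, Clasp2, Rab29 and Ralb are not markers of myeloid cells. Samd11 was near the filter, at 0.569 to 1.58 CPM, and Clasp2 varied little, from 60.7 to 71.4 CPM. Srgn had 50.1, 20.3, 26.7, 97.5 and 36.2 CPM with vehicle and 24.1, 21.8, 27.6, 49.9 and 29.0 CPM with quinpirole, with replicate 4 highest in each group. None of the 10 was called between the groups, and the adjusted limma p-values were 0.589 to 0.838.

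A second list held 48 other genes of neutrophils or their precursors, of which 45 were present and 39 tested. None of the 39 was called by limma, 29 were lower and 10 higher with quinpirole in their means, and the median log2 fold change was -0.27. At an unadjusted p under 0.05, 10 of the 39 were lower, where 4.47% of all genes were, and 1 was higher, where 6.92% were. The 8 with the smallest p were Siglece, an inhibitory receptor of myeloid cells (-0.63, limma adjusted p = 0.237), S100a9 (-1.05, limma adjusted p = 0.260) and S100a8 (-0.98, limma adjusted p = 0.270), which form calprotectin, Chil3 (0.98, limma adjusted p = 0.281), Stfa1 (-0.92), Slpi (-0.72), Fcgr4 (-0.64) and Cxcr4 (-0.51), with values on the log2 scale. Keratinocytes of inflamed skin also make S100a8, S100a9 and Slpi. The log2 levels of Fcgr4 and S100a9 had r = 0.80 and r = 0.59 with the mean of the 22 genes. Such values were not particular to neutrophil genes. Of the keratinocyte markers, Krt6a (r = 0.79), Krt5 (0.78), Krt16 (0.73), Krt14 (0.67) and Krt17 (0.51) also followed that mean. Trp63 (0.07) and Ivl (-0.09) did not, and Krt10 (-0.48), Krt1 (-0.20) and Lor (-0.66) were negative. Of the endothelial markers, Pecam1 had r = 0.77 and Cldn5 r = -0.17.

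A further list held 24 signals that recruit or sustain neutrophils, of which 21 were present and 19 tested. None was called by limma, 11 were lower with quinpirole, and the median log2 fold change was -0.05. At an unadjusted p under 0.05, 0 were lower and 2 higher, beside the same shares of all genes. Cxcl2, a ligand of CXCR2, had 16.3, 3.98, 6.15, 82.0 and 9.64 CPM with vehicle and 5.70, 3.35, 16.3, 0.762 and 5.03 CPM with quinpirole, or -1.33 as a log2 fold change (limma adjusted p = 0.520). Vehicle replicate 4 was again the highest library, as it was for Cxcl3 (25.5 CPM) and Cxcl5 (19.9 CPM), 2 further ligands of CXCR2. Quinpirole replicate 4, which had the highest Cxcr2, had the lowest Cxcl2 of all 10. Cxcl1 ran the other way, with 27.6 CPM in quinpirole replicate 4 as its highest value. The genes with the smallest p were Csf1, the macrophage growth factor (0.57, limma adjusted p = 0.259), and Alox5, the lipoxygenase of leukotriene synthesis (0.49, limma adjusted p = 0.287), both higher with quinpirole. Il1b, which stands on both lists, differed by -0.85 on the log2 scale (limma adjusted p = 0.604), and Tnf by 0.26 (limma adjusted p = 0.625).

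Markers of other cells in the skin also differed between the groups in their means, though limma called none of them. All 12 muscle genes were higher with quinpirole (median log2 fold change 1.22), 8 of them at an unadjusted limma p under 0.05. The groups of 2 muscle genes did not overlap. Of 6 mast cell markers, 5 were higher (median 0.72), all 5 at an unadjusted p under 0.05. The groups of 1 mast cell marker did not overlap. Of all genes, 6.92% were higher at that threshold, and 1.34% were higher without overlap. All 4 erythroid genes were lower (median -1.01), 2 at an unadjusted p under 0.05. All 19 hair shaft genes were lower too (median -1.69), 0 at that threshold. Of 6 endothelial markers, 5 were lower (median -0.42), 2 at that threshold, where 4.47% of all genes were. Summed mast cell markers were 84.6 to 143 CPM with vehicle and 132 to 229 CPM with quinpirole, and summed T cell markers 100 to 146 and 129 to 184 CPM. Erythroid genes, a measure of blood in the sample, summed to 164 to 461 CPM with vehicle and 46.2 to 367 CPM with quinpirole. Hair shaft genes summed to 11.7 to 7132 CPM with vehicle and 13.6 to 7005 CPM with quinpirole. Muscle genes summed to 561 to 2074 and 1186 to 5591 CPM. Keratinocyte markers, at 20910 to 37059 CPM over all libraries, were present throughout. With the mean of the hair shaft genes as a covariate, 0 of 22 neutrophil genes were called by limma and their median log2 fold change was -0.42. The part of the other cells in these values was not tested.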

How the data were processed

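Per the labels' protocols, MGIEasy kits were used to deplete ribosomal RNA from total RNA of whole skin and to build directional libraries. Per the submitters' processing notes, RSEM 1.3.0, Bowtie2, Trimmomatic 0.38, edgeR and mm10 were used, in roles the notes do not give. The gene annotation, and whether counting used strand, is not given in the sources used here. The authors' deposited values are a normalised signal for 17016 gene symbols in 10 libraries. In it 100% of values were whole multiples of 1 read, within 1e-06, so reads per library could be recovered. CPM here are these values over 1 constant for all libraries, the mean column total.

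Genes with at least 1 CPM in at least 5 libraries were compared with limma 3.58.1 (R 4.3.3; log2 of CPM plus 1, mean-variance trend, no covariate, all 14548 genes in 1 fit, two-sided). The test was tried on simulated data first. Genes of the list below the filter got an exact two-sided permutation test over the 10 libraries, left unadjusted, since the list was chosen with results known. Alternatives used pseudocounts of 0.1 and 5, other filters, plain totals, quantile normalisation, recovered reads in edgeR 4.0.16 and in DESeq2 1.42.0, a replicate block, the hair shaft genes as a covariate, and each library left out.

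The members and lists were chosen with earlier results of these data known. Named were all members, the 8 genes of each further list with the smallest limma p, and the 10 other genes, provisional symbols left out, most correlated with the members' mean. The 2 closest libraries of a group differed by a chi-square per gene of 7.10, so none was counted as a repeat. Positions and exon lengths come from GENCODE M21 of mm10, promoters from RefSeq. Figures were drawn with matplotlib 3.10.9.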

Additional observations from a re-analysis of the deposited data

Results flagged for a closer look

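In each group of 5 libraries, the gap between the highest or lowest library and its neighbour was compared with the group's range. Of 44 such groups over the 22 tested genes, 8 had a gap above Dixon's critical value of 0.71. For normally distributed values, chance exceeds it in about 1 group in 20. The gaps were taken on CPM, where high libraries stand out more than on the log2 scale. That rate may therefore not hold here. The genes share libraries and move together, so these are not 8 separate events. In vehicle replicate 4, Clec4e reached 22.6 CPM (the next library had 5.90) and Acod1 26.5 CPM (the next had 4.52). Vehicle replicate 2 had the low value of Itgam, 91.1 CPM. In quinpirole replicate 4, Cxcr2 reached 86.8 CPM (the next had 49.4) and Clec4d 5.72 CPM (the next had 2.58). Quinpirole replicate 2 had 88.3 CPM of Wfdc21, quinpirole replicate 3 had 6.13 CPM of Acod1, and quinpirole replicate 5 had 9.94 CPM of Pilra.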

How the results depend on the processing

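No gene of the list was called under any alternative run, while the number of genes called over the whole table, 3 with limma, was 5 with a pseudocount of 0.1, 6 with no filter, 5 with a filter of 5 CPM, 5 with plain totals, 5 with edgeR, 219 with DESeq2 and 14 with the hair covariate. It was 0 to 10 as each library was left out, 10 of them without vehicle replicate 5. With the replicate number as a block it was 0, with 1576 genes at an unadjusted p under 0.05. The deviations of same-numbered libraries from their group means correlated at 0.22, -0.24, 0.19, 0.13 and 0.10. These values cannot show whether the numbers pair the libraries. The median log2 fold change of the list stayed below 0 in each alternative, at -0.46 with edgeR. Some small differences changed sign. With the hair covariate Cxcr2 came to -0.16. As each library was left out, the log2 fold change ranged from -0.17 to 0.12 for Cxcr2, from -0.0222 to 0.27 for Pilra, from -0.00426 to 0.19 for Ncf1, from -0.0876 to 0.18 for Cybb, from -0.42 to 0.40 for Clec4e and from -0.073 to 0.20 for Padi4. The cause was not tested. Depth limits the 7 genes below the filter, most of all Mpo, Ltf and Cxcr1.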
